A study of Mus musculus with 6 samples.

Results

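Levels of the Hey, Iroquois and COUP-TF transcription factors, which set the identity of the heart's chambers and wall layers, were followed through 6 mouse hearts profiled on the Affymetrix Mouse430_2 array. The members are 10 genes given by name: Hey1, Hey2, Heyl, Irx1, Irx2, Irx3, Irx4, Irx5, Nr2f1 and Nr2f2. They are 10 of the 18193 genes that have a probe set of their own on the array, and all 17 of their probe sets were taken, out of 45101. The hearts came from 3 mice labelled EphB4 mutant and 3 labelled wild type, all of strain C57B6. The Ephb4 gene makes a tyrosine kinase receptor found on venous endothelium, with ephrin-B2 as its main ligand. What kind of mutation it was, how old the animals were and their sex are not stated in the labels. The descriptions begin with the letters eM for mutant 3 and wild-type 3 and with eI for mutants 1 and 2 and wild-type 1 and 2, and what the letters stand for is not stated. Values are log2 intensities on a scale made by RMA (robust multi-array average), so a difference of 1 is a 2-fold change.

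Hey proteins are basic helix-loop-helix repressors, most of them switched on by Notch signalling. In the mouse heart Hey1 marks the atria and the endocardium, Hey2 the compact wall of the ventricles, and Heyl mainly smooth muscle and cushion mesenchyme. Together Hey1 and Hey2 keep the programme of the atrioventricular canal out of the chambers. Iroquois proteins are homeodomain factors. Irx4 supports ventricular gene expression, Irx3 acts in the trabecular layer and the fast conduction system, and Irx5 shapes the repolarization gradient across the ventricular wall. Irx1 and Irx2 are found in the ventricular septum. The COUP transcription factors are orphan nuclear receptors. Nr2f2 gives atrial muscle its identity and maintains the venous state of endothelium, where Ephb4 is a classical marker, and Nr2f1 is its close relative, best known from the nervous system.

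On the assembly GRCm38.p6 the RefSeq gene table places Irx1 (chr13:71958232-71963723), Irx2 (chr13:72624430-72634196) and Irx4 (chr13:73259589-73269622) beside each other, with 661 kb between Irx1 and Irx2 and 625 kb between Irx2 and Irx4. Irx3 (chr8:91798511-91801654) and Irx5 (chr8:92357796-92361456) lie 556 kb apart. The other members stand alone: Hey1 at chr3:8663359-8667038, Hey2 at chr10:30832359-30842783, Heyl at chr4:123233556-123249870, Nr2f1 at chr13:78188971-78198873 and Nr2f2 at chr7:70351946-70366746. Promoter windows of 300 bases, 250 before and 50 after an annotated start, were at hand in RefSeq for 6 of the 10 genes, Hey2, Irx2, Irx3, Irx4, Nr2f1 and Nr2f2. The start used is the outer end of the gene's span for Hey2, Irx3, Nr2f2 and the first of 2 Nr2f1 windows. It lies 4390 bases inside the span for Irx2, 908 for Irx4 and 2424 for the second Nr2f1 window. They were searched on both strands for TGGGAA, the core bound by the Notch effector RBPJ, for CACGTG, an E-box, and for TGACAG, bound by homeodomain factors of the Meis type. The Hey2 window is shown because Hey2 is the member with 2 copies of TGGGAA (capitals, the upstream copy on the other strand). The Nr2f1 and Nr2f2 windows are shown because both genes read lower in the eM hearts, as described below.
Hey2 promoter, chr10:30842734-30843033, minus strand: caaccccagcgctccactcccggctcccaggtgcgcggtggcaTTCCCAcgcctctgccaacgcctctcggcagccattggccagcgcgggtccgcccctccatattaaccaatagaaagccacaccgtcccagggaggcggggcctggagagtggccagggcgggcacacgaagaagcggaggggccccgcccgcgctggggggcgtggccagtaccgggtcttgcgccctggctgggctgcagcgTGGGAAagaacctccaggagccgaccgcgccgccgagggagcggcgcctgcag
Nr2f1 promoter, chr13:78198824-78199123, minus strand: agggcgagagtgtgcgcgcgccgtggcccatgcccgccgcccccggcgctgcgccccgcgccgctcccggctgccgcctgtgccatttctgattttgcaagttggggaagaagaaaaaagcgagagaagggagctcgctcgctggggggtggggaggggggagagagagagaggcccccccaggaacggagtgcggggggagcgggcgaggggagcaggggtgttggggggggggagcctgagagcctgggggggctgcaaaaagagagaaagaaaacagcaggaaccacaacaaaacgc
Nr2f2 promoter, chr7:70366697-70366996, minus strand: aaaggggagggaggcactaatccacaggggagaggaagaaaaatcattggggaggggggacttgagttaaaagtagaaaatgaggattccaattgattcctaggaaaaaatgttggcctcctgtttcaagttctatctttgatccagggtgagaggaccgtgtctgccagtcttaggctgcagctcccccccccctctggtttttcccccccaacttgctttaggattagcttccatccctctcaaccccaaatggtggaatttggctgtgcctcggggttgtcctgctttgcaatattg
One Hey2 copy begins 3 bases before the gene's start and the other 207 before it. Irx3 and Irx2 each held 1 copy of TGGGAA, and Irx4, Nr2f1 and Nr2f2 held none. Of all 32851 promoter windows of this length, 25.6% hold TGGGAA. The E-box (7.15% of all windows) and TGACAG (19.2%) were in none of the members' windows. A match shows letters, not binding.

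The hearts differed more by the letters of their descriptions than by genotype. Of the variance, 60.4% lay along one principal component, which placed mutant 3 at 52.6 and wild-type 3 at 34.1, against -24.3 to -17.9 in the eI hearts. Controls of RNA quality also moved with the letters. Beta-actin read higher at its 3-prime end than at its 5-prime end by 0.77 and 0.51 in eM, against 0.28 to 0.41 in eI. Ribosomal RNA of the small subunit read 10.56 and 11.08 in eM, against 9.40 to 9.77 in eI. Sex-linked transcripts were split within the mutants. Xist, made in females, read 6.73 in mutant 1 and 6.78 in mutant 3, but 11.75 in mutant 2 and 11.51 to 12.33 in the wild-type hearts. The Y-linked gene Eif2s3y read 9.56 and 9.58 in mutants 1 and 3, against 3.49 to 3.79 in the other hearts. Mutants 1 and 3 thus read as male and the others as female, so sex is partly confounded with genotype. The eM pair sets a male mutant against a female wild-type heart, and there genotype and sex cannot be told apart. Ephb4 read 7.93 to 8.14 in mutant hearts and 7.83 to 8.20 in wild-type hearts. The tissue matched its label, with heart muscle markers at a mean of 12.62 to 13.04 in mutant hearts and 12.62 to 12.97 in wild-type hearts.

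**Figure D1:**
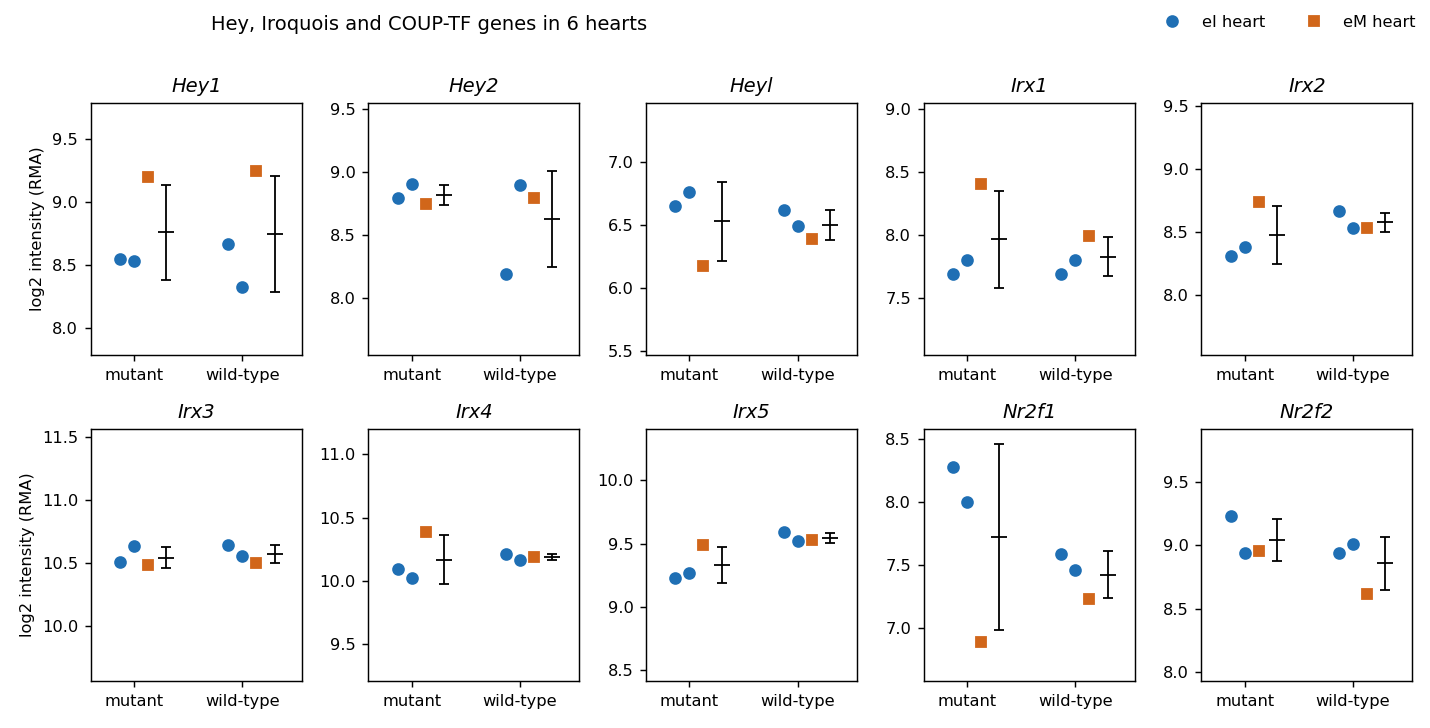
Log2 intensity of each gene's probe set of highest mean in 3 mutant and 3 wild-type hearts. Blue circles are eI hearts, orange squares eM hearts, and black bars the mean and SD of the 3 hearts. All panels span the same log2 range. Hey1 is high in both eM hearts, and Nr2f1 is highest in mutants 1 and 2 and lowest in mutant 3.

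Hey1 was the one member called higher in the eM hearts. It read 9.19 in mutant 3 and 9.24 in wild-type 3, the eM hearts, against 8.55 and 8.53 in mutants 1 and 2 and 8.66 and 8.33 in wild-type 1 and 2, the eI hearts. Both eM hearts lay above all 4 eI hearts, and they differed from each other by only 0.05. The difference, eM minus eI with genotype as a term, was 0.70 ± 0.12 (SE) log2, or 1.63-fold (95% interval 0.42 to 0.99; limma, adjusted p = 0.0183). It was 0.66 among the mutant hearts and 0.75 among the wild-type hearts. Limma called 3 of the 16 tested member probe sets between eM and eI hearts, 18.8%, where it called 11.7% of all 27022 tested probe sets. Of these, 1 was higher (background 6.75%) and 2 were lower (background 4.94%) in eM. An unadjusted p under 0.05 was found for 8 of the 16, against 29.2% of all. Hey1 ceased to pass without mutant 1 (adjusted p = 0.0596), mutant 2 (0.0747), mutant 3 (0.184) or wild-type 3 (0.113), each a limma fit on 5 hearts, and with the Xist level as a covariate (adjusted p = 0.0613). Over 13 alternatives its adjusted p ranged from 0.00953 to 0.184 and its difference from 0.62 to 0.77.

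Between genotypes Hey1 was level. It averaged 8.76 ± 0.38 in mutant hearts and 8.74 ± 0.46 in wild-type hearts (SD, n = 3 each), and the difference of 0.01 had a 95% interval of -0.66 to 0.69. It came to 0.04 among eI hearts and -0.05 in the eM pair, and its sign turned after quantile normalization. With the letters as a block the interval narrowed to -0.25 to 0.28. The heart muscle gene Myh6, the alpha myosin heavy chain, was among the 3 genes whose profile over the 6 hearts lay closest to that of Hey1 among 13571 genes. The measure was the root mean square difference after each gene's own mean was subtracted. This was 0.04 for Greb1l, 0.06 for Slc5a3 and 0.06 for Myh6, against an SD of 0.38 of Hey1 over the hearts. These likenesses over 6 hearts that split by letters are given as a description.

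Hey2, the compact wall factor, read alike in 5 of the 6 hearts. Its values were 8.79, 8.90 and 8.75 in mutants 1, 2 and 3 and 8.19, 8.90 and 8.79 in wild-type 1, 2 and 3. The groups overlapped, and wild-type 1 alone was low. The mutant minus wild-type difference was 0.19 (interval -0.28 to 0.65; exact permutation test, two-sided, p = 0.6), and without wild-type 1 it was -0.03. Between eM and eI hearts the difference was 0.07 (interval -0.42 to 0.57), which became -0.10 without wild-type 1. Wild-type 1 also had a lower upper quartile of all values (8.05, against 8.11 to 8.17 in the other hearts) and a lower BioB hybridization control (7.68, against 8.25 to 8.40), and the part of these in its Hey2 value was not tested.

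Heyl was dimmer in the eM hearts at each of its 3 probe sets, and limma called 1 of them. At the probe set of highest mean (1438886_at) it read 6.17 in mutant 3 and 6.38 in wild-type 3, against 6.65 and 6.76 in mutants 1 and 2 and 6.62 and 6.49 in wild-type 1 and 2. The difference was -0.35 ± 0.12 (limma, adjusted p = 0.108). It was -0.17 without mutant 3 and -0.54 without wild-type 3. The dimmest probe set (1419303_at) gave -0.42 ± 0.10, with 5.12 and 5.20 in the eM hearts, against 5.54 and 5.41 in eI mutants and 5.73 and 5.65 in eI wild-type hearts. That call had a limma adjusted p = 0.0408 and held in 4 of 12 alternatives (adjusted p from 0.0423 to 0.208). With all 6 hearts it ended with no filter on dim probe sets (limma, adjusted p = 0.0649) and with median centring (0.0537). The same held for eBayes with trend and robust (0.0678) and for the Xist level as a covariate (0.103). It also ended without mutant 1 (0.145) or mutant 2 (0.12). Without mutant 3 the difference was -0.49 and without wild-type 3 it was -0.35, each with 1 eM heart left. The mean of this probe set over the hearts, 5.44, lay just above the 5.38 below which probe sets were not tested. The remaining one (1419302_at) gave -0.17 with overlap. Between genotypes the 3 probe sets gave 0.03, -0.19 and -0.16, none past the threshold.

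**Figure D2:**
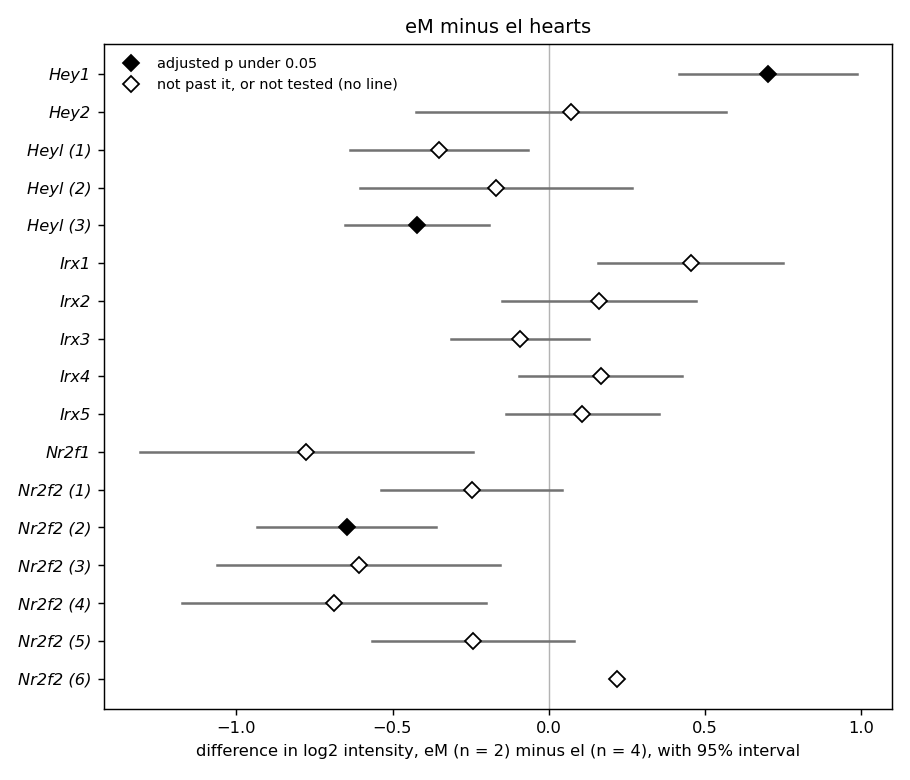
Difference in log2 intensity, eM hearts (n = 2) minus eI hearts (n = 4) with genotype as a term, for the 17 member probe sets, numbered within a gene by falling mean. Lines are 95% intervals from limma (none for the untested probe set), and filled diamonds have an adjusted p under 0.05. Hey1 lies to the right, and 5 of 6 Nr2f2 probe sets and Nr2f1 lie to the left.

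Irx2, Irx3, Irx4 and Irx5 varied least among the members, each by at most 0.42 log2 over the 6 hearts, where the others spanned 0.53 to 1.39. Irx3, a factor of trabeculae and conduction tissue, spanned 0.16, with 10.50, 10.63 and 10.48 in mutants 1, 2 and 3 and 10.64, 10.55 and 10.50 in wild-type 1, 2 and 3. Its genotype difference was -0.03 (interval -0.26 to 0.21) and its eM minus eI difference -0.09 (interval -0.31 to 0.13). Both eM hearts lay below all eI hearts, the nearest of them equal to 2 decimals. The 3 genes of closest profile to Irx3 were Usb1, Psmb8 and Ly6m, each at a root mean square difference of 0.02, where Irx3 itself had an SD of 0.07.

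Irx4, the ventricular factor, read 10.09, 10.02 and 10.39 in mutants 1, 2 and 3, against 10.21, 10.16 and 10.18 in wild-type 1, 2 and 3. Mutant hearts lay on both sides of the wild-type hearts, which were within 0.05 of each other. The genotype difference was -0.02 (interval -0.31 to 0.27). Mutants lay below wild type within eI (-0.13) and above within eM (0.20).

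Irx5 was lower in each mutant heart than in any wild-type heart. It read 9.23, 9.26 and 9.49 in mutants 1, 2 and 3, against 9.59, 9.52 and 9.53 in wild-type 1, 2 and 3. Mutant 3 came within 0.03 of the wild-type heart of its letters, so the gap rested on mutants 1 and 2. The difference was -0.22 ± 0.11 (SE), or 0.86-fold (interval -0.47 to 0.04; limma, adjusted p = 0.9999; two-sided exact permutation p = 0.1, the smallest that 3 against 3 allows). It was -0.31 within eI and -0.03 within eM. No other of the 16 tested probe sets separated the genotypes, where 4.67% of all tested probe sets did 2.27% with the mutant lower and 2.4% with it higher. In limma 0 of the 16 passed the threshold between genotypes, as did 0% of all probe sets, and 0 had an unadjusted p under 0.05, against 1.17% of all.

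Irx1 and Irx2, neighbours of Irx4 in the genome, were highest in mutant 3. Irx1 read 7.69, 7.80 and 8.41 in mutants 1, 2 and 3, against 7.68, 7.80 and 7.99 in wild-type 1, 2 and 3. Both eM hearts lay above the eI hearts, by 0.66 among mutants and 0.25 among wild-type hearts, and the difference of 0.45 ± 0.12 (SE) had a limma adjusted p = 0.0645. It passed in limma without wild-type 2 (0.048), with the stricter filter on dim probe sets (0.0494) and in the fit on gene means (0.0394). Irx1 has a single probe set, so the filter and the gene means left its difference at 0.45. They changed only the set of probe sets or genes fitted and adjusted with it. Without mutant 3 the difference was 0.25. Irx2 read 8.31, 8.38 and 8.73 in mutants 1, 2 and 3, against 8.67, 8.53 and 8.53 in wild-type 1, 2 and 3. Irx2 mutants were thus lower than wild type within eI (-0.25) and higher within eM (0.20), and the groups overlapped. Genotype differences were 0.14 for Irx1 (interval -0.35 to 0.63) and -0.10 for Irx2 (interval -0.43 to 0.23, and -0.02 without mutant 1). Within the eM pair, mutant 3 exceeded wild-type 3 by 0.41 at Irx1, 0.20 at Irx2 and 0.20 at Irx4, while Irx3 and Irx5 of the other cluster gave -0.02 and -0.03. A single pair of hearts gives those values, with no replicate check.

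Nr2f1 had the widest spread of any member's probe set, 1.39 log2 over the 6 hearts. It read 8.28, 8.01 and 6.89 in mutants 1, 2 and 3, against 7.59, 7.46 and 7.23 in wild-type 1, 2 and 3. Mutants 1 and 2 were the highest hearts and mutant 3 the lowest. Within the eI hearts both mutants exceeded both wild-type hearts, by 0.62 or 1.53-fold, and within the eM pair the mutant was lower by 0.34 (difference -0.34). Within eI, limma gave an unadjusted p = 0.00758, and no probe set passed after adjustment there (0% of 27022). An unadjusted p under 0.05 was found within eI for 3 of 16 member probe sets, Irx5, Nr2f1 and Nr2f2 (1436475_at), against 5.74% of all. The test of the difference between the letters' mutant effects gave -0.96 for Nr2f1 (limma interaction term, unadjusted p = 0.0115, adjusted p = 0.909). It was the only one of 16 with an unadjusted p under 0.05 for this term, against 5.32% of all probe sets. Over all 6 hearts the genotype difference was 0.30 with an interval of -0.55 to 1.14, and without single hearts it lay between 0.02 and 0.72.

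By letters, Nr2f1 was 0.78 ± 0.22 (SE) lower on the log2 scale in eM hearts (difference -0.78, interval -1.31 to -0.24; limma, adjusted p = 0.0739). Among mutants the difference was -1.25, and among wild-type hearts it was -0.30. Without wild-type 3, limma did call it (-1.25, adjusted p = 0.0371), and without mutant 3 the difference was -0.30.

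Nr2f2 was read by 6 probe sets, and those that were bright enough to test all gave lower values in the eM hearts. The called one (1436475_at) read 6.54 in mutant 3 and 6.29 in wild-type 3, against 7.30 and 7.23 in mutants 1 and 2 and 7.02 and 6.70 in wild-type 1 and 2. The eM hearts lay below all eI hearts, at -0.65 ± 0.12 (SE) log2, or 1.57-fold lower (interval -0.93 to -0.36; limma, adjusted p = 0.0233). Over 13 alternatives it kept the call in 7 (adjusted p from 0.0127 to 0.25). It lost the call without mutant 1 (0.0804), mutant 2 (0.0911), mutant 3 (0.25) or wild-type 3 (0.094), with the Xist level as a covariate (0.0772) and without the genotype term (0.0543).

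Other Nr2f2 probe sets gave eM minus eI differences of -0.25 (1416159_at, the one of highest mean, with overlap), -0.61 (1416158_at), -0.69 (1416160_at) and -0.24 (1431237_at), with limma adjusted p from 0.0784 to 0.284. The brightest read 9.23, 8.94 and 8.96 in mutants 1, 2 and 3, against 8.94, 9.01 and 8.62 in wild-type 1, 2 and 3, and its differences from letter to letter were thus smaller than at 3 of the other probe sets of the gene. In a fit on the mean of each gene's tested probe sets Nr2f2 differed by -0.37 (limma, adjusted p = 0.0314). In all, 10 of the 16 tested member probe sets separated eM from eI hearts, 2 with eM higher and 8 with eM lower, where 43.1% of all tested probe sets did, 22.8% higher and 20.3% lower. Of those 8, Nr2f2 gave 4 and Heyl 2, so they are not independent readings.

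Between genotypes the Nr2f2 probe sets went both ways. The brightest gave 0.19 (interval -0.17 to 0.54), or 0.06 without wild-type 3 and 0.09 without mutant 1, 1436475_at 0.36 and 1416158_at 0.34, while 1416160_at gave -0.08 and 1431237_at -0.17. At 1436475_at both letters showed higher mutant values, by 0.41 within eI and 0.26 within eM. With the letters as a block, limma gave that difference an interval of 0.09 to 0.63 and an unadjusted p = 0.0177, the only one under 0.05 among the 16 members in that fit, against 4.37% of all probe sets (adjusted p of every probe set at least 0.998). The 3 genes of closest profile to the brightest Nr2f2 probe set were Snhg7, Klhdc8a and Ankle1, at root mean square differences of 0.05, 0.06 and 0.06, where Nr2f2 itself had an SD of 0.20.

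**Figure D3:**
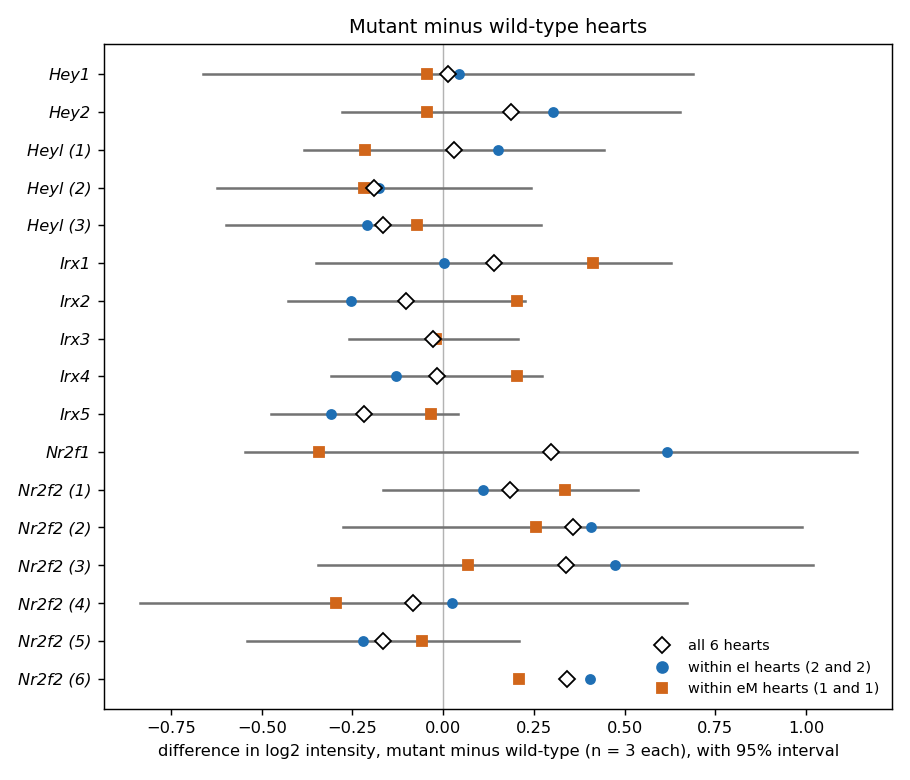
Difference in log2 intensity, mutant minus wild-type, for the 17 member probe sets. Open diamonds with lines are all 6 hearts and their 95% limma intervals, blue circles the 4 eI hearts, and orange squares the single eM pair. The dimmest Nr2f2 probe set was not tested and has no line. Each interval includes 0, and the squares and circles of Nr2f1 lie on opposite sides of 0.

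Markers of other cells moved with the letters as well. Over all 27022 tested probe sets, 13178 were higher in eM, and limma called 6.75% higher and 4.94% lower. Some genes stand in several of the lists below, so the lists are not independent. In whole hearts, fewer cells of a type and less RNA per cell cannot be told apart. Fibroblast genes, listed because COUP-TF genes are also active in mesenchyme, were lower in eM at 7 of 7 genes, 2 of them called, with a median of -1.02. Their mean level was 9.18 and 10.17 in eM hearts, against 10.67 to 11.22 in eI hearts. Lum, a matrix proteoglycan, fell by 3.42 on the log2 scale (limma, adjusted p = 0.00947), and the collagen gene Col1a2 by 1.12. Mutants 1 and 2 had the highest fibroblast means (11.22 and 11.01) and mutant 3 the lowest (9.18), with 10.84, 10.67 and 10.17 in wild-type 1, 2 and 3, which is the same order of hearts as for Nr2f1. The part of these cells in the Nr2f1 values was not tested. Epicardial genes gave a median of 0.16 (7 of 10 higher in eM, 3 of them called, and 1 called lower). Lrrn4 was 1.15 higher and Wt1, an epicardial zinc finger gene, 0.94 higher, while Msln, the mesothelin gene, was the one called lower (-0.67). The mean of the epicardial list was 8.86 and 8.90 in eM hearts, against 8.40 to 8.86 in eI hearts. Between genotypes 9 of 10 epicardial genes were higher in the mutant, none called, with a median of 0.31, which was 0.42 within eI and -0.01 within eM.

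**Figure D4:**
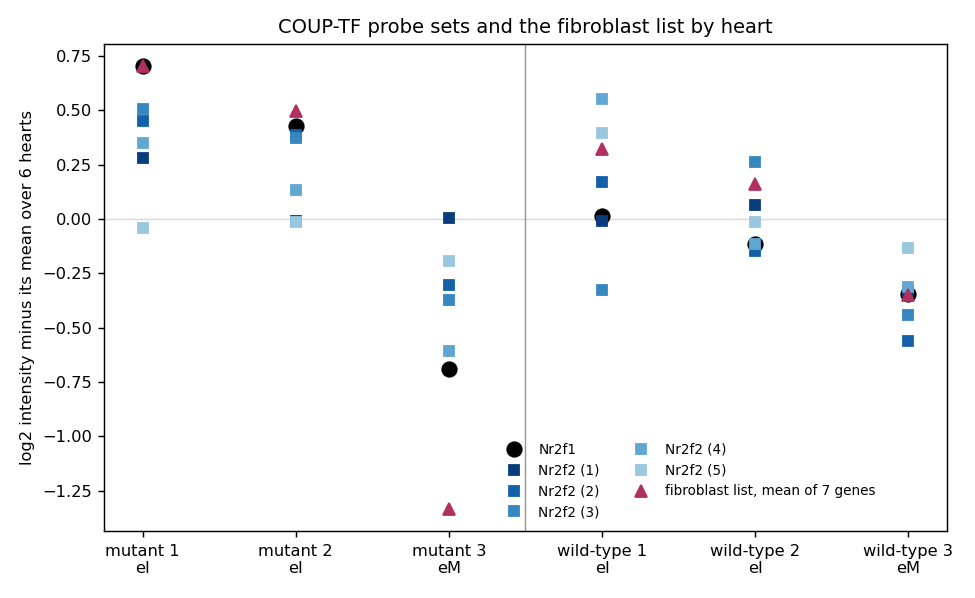
Log2 intensity of Nr2f1, the 5 tested Nr2f2 probe sets and the mean of 7 fibroblast markers in each heart, each minus its own mean over the 6 hearts. Nr2f1 (black circles) and the fibroblast mean (red triangles) stand highest in mutants 1 and 2 and lowest in mutant 3.

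Venous endothelial genes, the class that Nr2f2 maintains, were split in eM hearts. Aplnr, the apelin receptor, was 1.33 lower on the log2 scale (difference -1.33; limma, adjusted p = 0.00501), whereas Nrp2, a semaphorin and VEGF co-receptor, was 0.71 higher (adjusted p = 0.0326), and 3 of the 5 tested were not called. Atrial genes were split too: Tbx5, a T-box factor, was 0.50 higher and Sln, the calcium pump inhibitor sarcolipin, differed by -1.30, with 8 of 10 not called. Sln ranked the hearts nearly as Nr2f1 did, at 6.76, 6.30 and 4.65 in mutants 1, 2 and 3, against 5.71, 5.89 and 5.08 in wild-type 1, 2 and 3.

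The Notch pathway, upstream of the Hey genes, also gave both directions. Of its 16 genes, all tested, 1 was called higher and 2 lower in eM hearts, with a median of 0.04. Jag1, a Notch ligand, read 10.02 and 10.03 in eM hearts, against 9.32 to 9.49 in eI hearts (difference 0.62 ± 0.09 (SE); limma, adjusted p = 0.0118). Hes1, another Notch target and relative of the Hey genes, fell instead, by 0.65 on the log2 scale (difference -0.65; adjusted p = 0.0244), and so did the ligand Dll1, by 0.45. Between genotypes none of the 16 was called by limma, and 9 were higher in the mutant.

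Genes of the atrioventricular canal, which Hey1 and Hey2 keep out of the chambers, were higher in eM at 7 of 7, 3 of them called, with a median of 0.55 against -0.01 over all probe sets. Called were Cacna1h, a T-type calcium channel gene (0.88; limma, adjusted p = 0.00695), and the homeobox genes Msx2 (0.81) and Msx1 (0.53). Their mean level was 8.93 and 8.73 in eM hearts, against 8.14 to 8.37 in eI hearts. Compact wall genes gave a median of 0.34, with the cell cycle gene Ccnd2 1.00 higher and Mycn, a driver of growth of the wall, 0.61 higher, both called, and 5 of 7 not called. Trabecular genes had a median of -0.16 and 1 call, Cited1, a transcriptional cofactor (-0.99). In the ventricular list Pln, which encodes phospholamban, was the single call (-0.75), while of 9 conduction genes 1 was called higher, Tbx5 (0.50), and 2 lower, the connexin Gja1 (-0.55) and the channel subunit Kcne1 (-1.50). Heart muscle genes had 4 called higher of 10, among them Ttn (1.64), Ryr2 (0.76) and Myh6 (0.67).

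Smooth muscle and pericyte genes, where Heyl is known to act, had 3 of 9 called higher (Tagln 1.19, Rgs5 1.21 and Cspg4 0.80). By direction the list went both ways, with 6 higher and 3 lower (median 0.36), and none of the lower ones was called. Heyl itself was called lower at 1 of 3 probe sets. Endothelial genes had 2 of 8 called lower, Emcn (-1.18) and Egfl7 (-0.73), with 3 higher and 5 lower by direction (median -0.15). Endocardial genes had 1 of 5 called higher, Gata5 (0.51). By direction 2 of these were higher and 3 lower (median -0.10), among the lower Tal1 (-0.70, not called). Arterial genes had 0 of 8 called. Erythroid genes were lower at 4 of 4 tested, 3 of them called, with means of 6.67 and 6.57 in eM hearts, against 7.37 to 8.19 in eI hearts. Liver genes were lower at 5 of 5, 1 of them called, at means of 5.31 and 5.61, against 6.91 to 8.97. Lung and foregut genes (0 of 4) and neuronal genes (0 of 4) had no calls. Between genotypes limma called 0 of the 133 genes tested in the 19 lists, and 2 had an unadjusted p under 0.05, the endothelial receptor gene Tie1 (0.27) and the epicardial gene Bnc1 (0.48). The part of blood, liver or any other cells in the members' values was not tested.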

How the data were processed

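Each of 6 mouse hearts has 1 array. The authors deposited log2 values, which come from RMA per the submitters' processing notes. Version and steps of RMA: not given in the sources used here. Groups and replicate numbers came from the titles, the letters eI and eM from the descriptions. Since the series' design names 6 mice, an array stands for an animal. No scanner files were used, so levels above background are not known.

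Of 45101 probe sets, 64 controls were left out. The platform annotation gave 1 gene for 34945 probe sets, several for 932, which named no gene, and none for 9160. For 34741 of those naming 1 gene the gene ID matched the RefSeq table, and 0 symbols differed. Probe sets whose mean lay in the lowest 40% (below 5.38) were not tested, which left 27022, among them 16 of the 17 of the members. With limma 3.58.1 (R 4.3.3), moderated tests, two-sided and adjusted by Benjamini-Hochberg over all tested probe sets with a threshold of 0.05, compared genotypes without covariates and letters with genotype as a term. The interaction of both was also fitted. Intervals are 95% limma intervals. The fits were tested on simulated data. The number of arrays limits the precision of all values. A gene of another list stands by its probe set of highest mean. Differences between probe sets of different genes are not differences in abundance, and none are drawn.

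The members, the lists and the tests were chosen with earlier results of these data known. Genes named beside the members are those of smallest p in each list, up to 3 per list and comparison. Likeness was computed for the member of highest mean in each family. The replicate block took the replicate numbers of the titles as pairs. Same-numbered hearts correlated at 0.18, 0.36 and 0.74 in their deviations from the group means. Mutant 2 with wild-type 1 (0.49) and mutant 1 with wild-type 2 (0.47) correlated more than the same numbers 1 and 2 did. Pair 3 shares the letters eM, so these correlations do not show that the numbers mark pairs. Alternatives were no filter, a stricter filter (60%), quantile normalization, median centring, eBayes with trend and robust, Xist as a covariate, the replicate number or letters as a block, eI hearts alone, no genotype term, the mean of a gene's probe sets, and leaving out each heart. Figures were drawn with matplotlib 3.10.9.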

Additional observations from a re-analysis of the deposited data

Results flagged for a closer look

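Hey2 in wild-type 1 stood apart from the other eI hearts, with 8.19 against 8.79 to 8.90, a gap that is 0.849 of the range of the 4 hearts. Nr2f2 did so at 1 of its dim probe sets (1431237_at), where wild-type 1 read 5.84 against 5.40 to 5.43 in the others, a gap of 0.932 of the range. All 17 member probe sets were examined in this way, and chance alone flags about 1 group in 20.

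At 4 of the 16 tested probe sets the genotypes did not overlap within eI and the mutant effect was opposite in eM. The same held at 19.4% of all tested probe sets. Probe sets that overlapped within eI, such as Hey1 (0.04 in eI, -0.05 in eM), were not counted. By the interaction term, eM minus eI, the effects differed by -0.96 at Nr2f1, -0.37 at Heyl (1438886_at), 0.455 at Irx2 and 0.33 at Irx4, with a limma adjusted p from 0.909 to 0.916, so none passed. Limma called 0 of 27022 interactions, and 5.32% had an unadjusted p under 0.05. The eM side is 1 heart per genotype.

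A probe set of Nr2f2 too dim to be tested (1444229_at) read 3.72, 3.67 and 3.81 in mutants 1, 2 and 3, against 3.28, 3.29 and 3.60 in wild-type 1, 2 and 3, a difference of 0.34 (two-sided exact permutation p = 0.1, the smallest possible).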

How the results depend on the processing

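Between genotypes the number of probe sets called was 0 in all alternatives that kept the 6 hearts or the eI hearts, and 0 to 2 without single hearts (1 without wild-type 3, 2 without mutant 2). The members had 0 calls in each. The replicate block, with same-numbered hearts as pairs, called 0 (943 with an unadjusted p under 0.05, 1 of them a member's), and it changed no call. The letters block called 0. No paired analysis was possible for eM against eI because both eM hearts carry number 3. Between eM and eI hearts 3160 probe sets were called, 1114 with the Xist level as a covariate, and 1 to 4333 without single hearts, namely 1208 without mutant 1, 815 without mutant 2, 1 without mutant 3 and 1263 without wild-type 3. Member calls there were 3, against 2 with no filter, median centring, eBayes with trend and robust or no genotype term, and 0 with Xist. Leaving out a single eI heart gave 0 without mutant 1 or mutant 2, 4 without wild-type 1 and 5 without wild-type 2. Fits with fewer hearts or 1 more covariate have fewer residual degrees of freedom, and a fit without wild-type 3 or mutant 3 leaves 1 eM heart, which is assumed to vary like the rest. The interaction gave 0 calls in all 6 settings run.

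Apart from leaving out single hearts, 75 of 79 member results between eM and eI kept direction and side of the threshold, as did 94 of 99 between genotypes, the eI hearts alone included. The other 4 were Hey1, lost with Xist, and Irx1 (stricter filter, gene means) and Nr2f2 (gene means), gained. These results take each gene at its probe set of highest mean, or at the mean of its probe sets. The called probe sets of Heyl (1419303_at) and Nr2f2 (1436475_at) are thus not among them. With all hearts kept, the Heyl call was lost with no filter, median centring, eBayes with trend and robust, and Xist. The Nr2f2 call was lost with Xist and without the genotype term. The genotype difference turned to -0.0023 for Hey1 after quantile normalization. With Xist as a covariate it turned to -0.14 for Hey1, -0.0058 for Irx1 and 0.062 for Irx3, and it was -0.11 for Heyl over the mean of its probe sets. The cause was not tested. Without single hearts, genotype differences ranged from -0.21 to 0.26 for Hey1, -0.0307 to 0.32 for Hey2, -0.0868 to 0.21 for Heyl, -0.0807 to 0.28 for Irx1, -0.0738 to 0.012 for Irx3, -0.13 to 0.054 for Irx4, -0.23 to -0.02 for Irx2, 0.02 to 0.72 for Nr2f1 and 0.06 to 0.26 for Nr2f2. Differences between eM and eI ranged from -0.10 to 0.25 for Hey2, -0.0668 to 0.39 for Irx2, -0.0001 to 0.33 for Irx4, -0.0304 to 0.25 for Irx5, -0.54 to -0.17 for Heyl, 0.25 to 0.66 for Irx1, -1.25 to -0.30 for Nr2f1 and -0.36 to -0.13 for Nr2f2.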
